A study of Saccharomyces cerevisiae with 20 samples.

Results

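Transcript levels of D273-10B, a laboratory strain of the budding yeast Saccharomyces cerevisiae with a long use in work on mitochondria, were compared with those of BY4741, a common laboratory strain of the S288C reference background. The 4 libraries of each strain were chosen by their strain labels, 8 of the 20 libraries of a series of 5 strains, and all 7127 genes of the count table were read. Libraries of full-length cDNA made by the Smart-seq2 protocol were read as 75-base single-end reads, and the measure is the number of reads counted per gene. The other 12 libraries, of CEN.PK2, RM11-1a and W303, entered the fit to estimate the spread and are named only as a reference range.

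The BY4741 cells carry the labelled genotype MATa his3Delta1 leu2Delta0 met15Delta0 ura3Delta0, so they are of mating type a and lack functional genes for the synthesis of histidine, leucine, methionine and uracil. The D273-10B cells carry the labelled genotype MATAlpha mal, so they are of mating type alpha, have none of those 4 marker alleles and are labelled as not using maltose. Both strains were grown without treatment in synthetic complete medium with glucose, at 30 °C, to early exponential phase. Strain, mating type and nutritional markers differ together between the groups, so the part of any of them in a difference cannot be told apart. The labels do not say whether the 4 libraries of a strain came from separate cultures. The p-values thus measure the spread between libraries of a strain, pooled over all 20 libraries, which may be technical. The samples are bulk RNA, in which fewer cells of a kind and less RNA per cell cannot be told apart.

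Mating type in yeast is set at the MAT locus. In alpha cells the alpha1 protein, with Mcm1, turns on alpha-specific genes, and the alpha2 protein, with Mcm1, binds operators in front of the a-specific genes and turns them off. Cells of type a make a-factor and the receptor for alpha-factor, and alpha cells make alpha-factor and the receptor for a-factor. In glucose both strains ferment, and the heme-dependent activator Hap1 and the HAP complex drive genes for respiration, such as that for cytochrome c.

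The operator that alpha2 and Mcm1 share is shown first, since the a-specific genes gave the clearest contrast between the strains. One end of the operator, which alpha2 binds, was searched as the letters CATGTA, any base, then TTAC, on both strands of the 500 bases before each annotated gene start of the RefSeq R64 reference. The search was added after the data were seen. The letters were found before 4 of the 7 a-specific genes (57.1%) and before 10 of 6000 genes in all (0.167%). Each line gives 32 bases 5′ to 3′ with the matched letters in capitals, for MFA2 at chrXIV:352163-352194 on the plus strand, STE2 at chrVI:82350-82381 on the minus strand, STE6 at chrXI:46476-46507 on the minus strand and BAR1 at chrIX:322078-322109 on the plus strand.
MFA2: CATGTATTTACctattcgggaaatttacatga
STE2: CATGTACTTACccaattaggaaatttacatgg
STE6: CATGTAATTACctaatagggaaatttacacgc
BAR1: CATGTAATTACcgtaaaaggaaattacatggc

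Sites of 3 further activators are shown because their target genes appear among the results: Hap1 before CYC1, Ppr1 before URA1 and Leu3 before BAT1 and LEU2. Ppr1, the activator of pyrimidine genes, was searched as TTCGG, 6 bases of any kind, then CCGAA, which 2 of 6000 promoters held (0.0333%). Leu3, the regulator of branched-chain amino acid genes, was searched as CCGG, 2 bases of any kind, then CCGG, which 6 of 15 promoters of that list (40%) and 16 of 6000 in all (0.267%) held. Hap1 was searched as CGG, 6 bases of any kind, then CGG, which 268 of 6000 promoters held (4.47%); this loose form was added after the data were seen, and of 13 promoters of the Hap1 and heme list it matched that of CYC1 alone. The form planned at first, in which the 2 bases TA stand at a fixed place in the gap, matched 0 of those 13 and 21 of 6000 in all (0.35%). The CYC1 promoter held 2 matches, of which the one at chrX:525988-526019 on the plus strand is shown. URA1 is shown at chrXI:25022-25057, BAT1 at chrVIII:517375-517404 and LEU2 at chrIII:91116-91145, all on the plus strand of R64. A match is a description of the reference sequence and not evidence of binding, and the sequence of D273-10B itself was not read.
CYC1: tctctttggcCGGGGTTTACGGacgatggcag
URA1: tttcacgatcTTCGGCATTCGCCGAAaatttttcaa
BAT1: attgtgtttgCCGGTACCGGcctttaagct
LEU2: ggtgagagcgCCGGAACCGGcttttcatat

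Libraries that stood apart touch many of the results. Total counts ran from 2507091 to 12098393 in BY4741 and from 6143878 to 12103234 in D273-10B. D273-10B replicate 1 had a rise of 0.43 log2 units per doubling of exon length, against -0.23 to 0.06 in the other 3 D273-10B libraries and -0.07 to 0.24 in BY4741. Its log2 levels had correlations of 0.874 to 0.908 with the BY4741 libraries and of 0.783 to 0.870 with the other D273-10B libraries, a description across genes that share length and base composition. D273-10B replicates 2 and 3 had raised levels on chromosomes IX and XII, and counts of genes that were near silence elsewhere. The library numbers start with 66 for D273-10B replicate 1 and BY4741 replicates 3 and 4, and with 69 for the remaining 5 libraries; the labels do not say what the numbers stand for.

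By edgeR's quasi-likelihood test with Benjamini-Hochberg adjustment at 0.05, 889 of 6119 genes tested differed between the strains, which is 14.5%. Of these, 619 (10.1%) were higher and 270 (4.41%) lower in D273-10B, and the median log2 fold change over all genes tested was 0.12. For 537 of the 889 genes, 292 higher and 245 lower, the ranges of the strains were apart, and over all genes tested this was so for 908 (14.8%), 423 (6.91%) higher and 485 (7.93%) lower. DESeq2 called 1187 (19.5%), 794 (13%) higher and 393 (6.45%) lower, and edgeR with a correction for gene length 987 (16.1%), 663 (10.8%) higher and 324 (5.29%) lower. With the 8 libraries alone, edgeR called 314 of 5883 genes (5.34%), 180 (3.06%) higher and 134 (2.28%) lower. Higher and lower calls rested differently on the libraries. All 4 D273-10B libraries lay below the BY4741 range for 245 of the 270 lower genes, but all 4 lay above it for only 292 of the 619 higher genes. A further 156 higher genes were above the range in replicates 2, 3 and 4 but not in replicate 1, and 75 were above it in replicates 2 and 3 alone.

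Without D273-10B replicate 1 the same test gave 1904 calls (30.7%), of which 1111 (17.9%) were higher and 793 (12.8%) lower. Counts given below for lists without replicate 1 stand beside these larger shares. Of the 889 genes called with all libraries, 862 were called in the same direction without it. Without both D273-10B replicates 2 and 3, which leaves the strain with 2 libraries, 174 genes were called (2.82%), 111 (1.8%) higher and 63 (1.02%) lower. All 270 lower genes and 572 of the 619 higher genes had the same sign there. A total of 103 higher and 57 lower genes were called with all libraries and in both of these reduced fits.

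The comparison was repeated within the libraries numbered from 69, BY4741 replicates 1 and 2 against D273-10B replicates 2 to 4, which called 966 of 5962 genes (16.2%), 520 (8.72%) higher and 446 (7.48%) lower. The libraries numbered from 66, BY4741 replicates 3 and 4 against D273-10B replicate 1, share no library with these. Of 964 of those genes tested in both, 438 (45.4%) had the same sign there, against 44.5% of all genes. Among those called and 4-fold or more, 244 of 407 (59.95%) did. With a correction for gene length the libraries numbered from 69 called 605 genes (10.1%), 269 (4.51%) higher and 336 (5.64%) lower, and the same check gave 434 of 605 (71.7%), against 51.3% of all genes, and 172 of 214 (80.4%) at 4-fold or more. Without the correction the calls as a whole thus had the same sign in the other libraries about as often as all genes did, and the calls of 4-fold or more did so more often. With D273-10B replicate 1 as the only library of its strain in its series, that library and its series cannot be told apart.

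Genes of mating type followed the labels. All 7 a-specific genes were lower in D273-10B (median log2 fold change -5.20) and all 5 alpha-specific genes were higher (3.82), against a median of 0.12 over all genes, and the calls held in both reduced fits. Values are given as normalised CPM, counts scaled to the TMM-adjusted size of the library, in the order of replicates 1 to 4. STE2 (YFL026W, chromosome VI, 82580 to 83875), the receptor for alpha-factor, stood at 626, 590, 473 and 513 in BY4741 and at 4.11, 1.88, 1.88 and 4.06 in D273-10B. Its log2 fold change was -7.54 (SE 0.517, adjusted p = 6.44e-09), and the lowest BY4741 library lay more than 100-fold above the highest of D273-10B.

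The a-factor precursor gene MFA1 stood at 73.8, 62.2, 106 and 110 normalised CPM in BY4741 and at 0, 0.660, 0.443 and 0.641 in D273-10B, a log2 fold change of -7.65 (SE 0.738, adjusted p = 7.38e-07). MFA2, the other a-factor precursor gene, fell by 6.93 on the log2 scale and AGA2, the binding subunit of a-agglutinin, by 5.20. STE6, the a-factor exporter, and ASG7 kept low but counted levels in all 4 D273-10B libraries and fell by 2.61 and 2.74. In STE6 these were 3.17, 3.30, 4.20 and 3.42 normalised CPM, against 23.2, 17.9, 20.4 and 24.5 in BY4741.

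BAR1 (YIL015W, chromosome IX, 322342 to 324105), the secreted protease that degrades alpha-factor, was an a-specific gene for which the D273-10B libraries split. It stood at 120, 99.7, 71.2 and 110 normalised CPM in BY4741 and at 3.05, 57.7, 19.1 and 3.63 in D273-10B, a log2 fold change of -2.25 (SE 0.634, adjusted p = 0.0228). Replicates 1 and 4 were low like STE2, and replicates 2 and 3 were intermediate. The cause of the split was not tested. Without replicates 2 and 3 the log2 fold change was -4.91 (adjusted p = 1.52e-05). The call was lost without D273-10B replicate 3 or without BY4741 replicate 4, and in the edgeR fit of the 8 libraries alone (adjusted p = 0.111).

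MF(ALPHA)1 (YPL187W, chromosome XVI, 193648 to 194145), the main alpha-factor gene, stood at 2.17, 1.15, 2.34 and 1.27 normalised CPM in BY4741 and at 1830, 5104, 8448 and 9224 in D273-10B. The log2 fold change of 11.79 (SE 0.638, adjusted p = 2.18e-10) came with a spread of about 5-fold among the D273-10B libraries. STE3, the receptor for a-factor, stood at 125, 56.2, 24.6 and 53.0 in D273-10B against 4.65, 7.64, 10.2 and 9.36 in BY4741 (log2 fold change 3.00, SE 0.543, adjusted p = 0.00139). Replicate 1 was the lowest D273-10B library for MF(ALPHA)1 and the highest for STE3 and for the alpha-agglutinin gene SAG1, which stood at 103, 28.9, 15.2 and 23.9 in D273-10B. The exons of MF(ALPHA)1, STE3 and SAG1 have 498, 1413 and 1953 bases. MF(ALPHA)2, with 363 bases, was also lowest in replicate 1, at 57.9, 100, 84.9 and 119 in D273-10B. AFB1, with 675 bases, was highest there, at 123, 104, 62.5 and 122. The part of gene length in these differences was not tested.

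**Figure D1:**
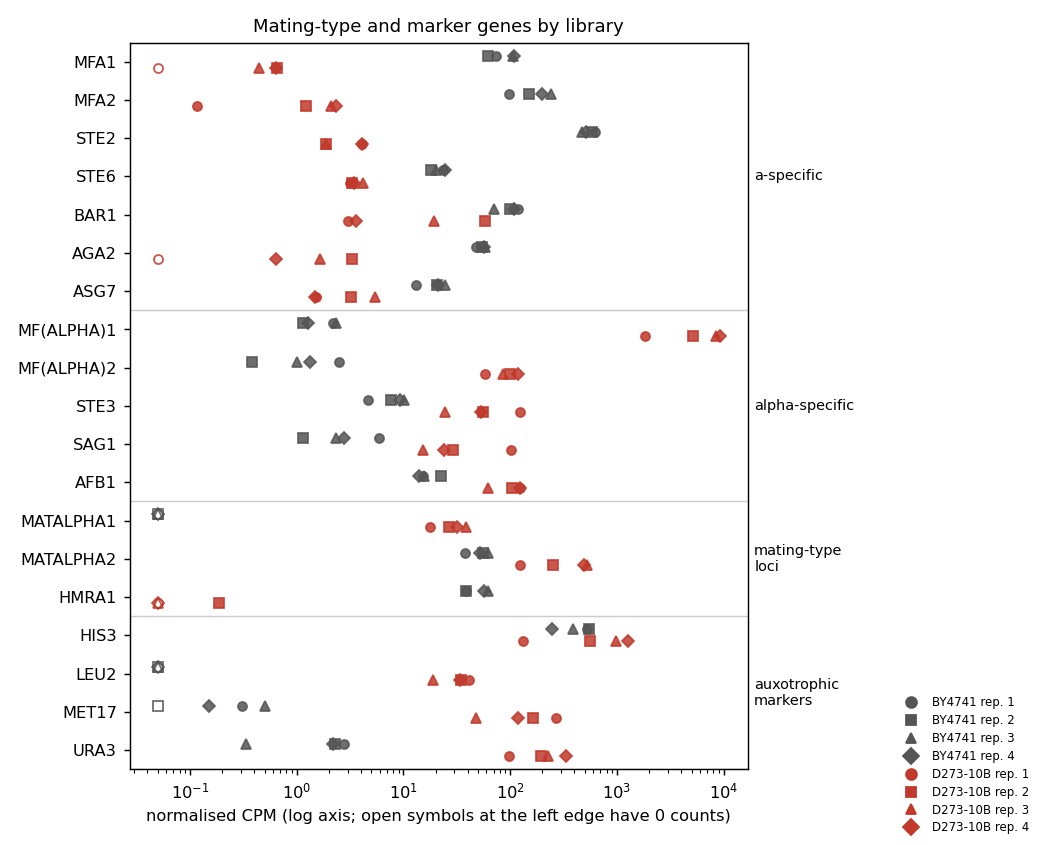
Normalised CPM on a log axis for the a-specific, alpha-specific, mating-type and marker genes in the 4 BY4741 (grey) and 4 D273-10B (red) libraries; each point is a library and open symbols at the left edge have 0 counts. The a-specific genes lie to the left in D273-10B, with BAR1 at 57.7 and 19.1 in replicates 2 and 3, and the alpha-specific genes to the right.

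At the mating-type loci on chromosome III, MATALPHA1 had 0 counts in every BY4741 library and 17.7, 26.7, 38.5 and 31.6 normalised CPM in D273-10B, at least 25.0-fold higher against a floor of 3 counts per library. HMRA1, the a1 gene at the silent HMR cassette, stood at 38.7, 39.0, 61.5 and 57.4 in BY4741 and at 0, 0.188, 0 and 0 in D273-10B. It had 1361 counts over the BY4741 libraries and 2 over those of D273-10B, a ratio of 888 on the TMM scale (exact 95% interval 245 to 7337, counting error only). All 75-base windows of MATALPHA1 and MATALPHA2 occur again in the reference, at the silent HML cassette, so reads of MAT and HML cannot be told apart. The reference holds the alpha cassette at MAT and the a cassette only at HMR, so HMRA1 is the one place in it for reads of a1. MATALPHA2 was counted in BY4741 too, at 38.1 to 62.0 normalised CPM, against 123 to 521 in D273-10B. HMRA2, the a2 gene at HMR, stood at similar levels, 37.5 to 59.2 in BY4741 and 92.8 to 383 in D273-10B. All windows of HMRA2 occur elsewhere in the reference as well. The counts of MATALPHA2 in BY4741 were thus not read as expression of alpha2.

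Genes of the mating pathway that both cell types use were read next. Of 16 pheromone signalling genes, 2 were higher and 0 lower (12.5% called, beside 14.5% of all genes), with a median of -0.06. Of 8 genes specific to haploids, 1 was higher and 1 lower (25% called), with a median of -0.47. The higher haploid gene, STE5, is also a member of the signalling list. Without D273-10B replicate 1 the counts were 4 higher and 5 lower, and 2 higher and 3 lower. In that fit 17.9% of all genes were higher and 12.8% lower. Neither list was read as a shift of the pathway. Of 12 pheromone-induced genes tested, 4 were lower and 1 higher (41.7% called), with a median of 0.06. FUS1, needed for cell fusion, stood at 14.3, 23.3, 23.4 and 18.8 normalised CPM in BY4741 and at 0.940, 1.04, 1.66 and 1.496 in D273-10B (log2 fold change -3.96, SE 0.350, adjusted p = 2.41e-07). AGA1, the anchor subunit of a-agglutinin, fell by 3.10. The Ste12 site, searched as TGAAACA, was found before 7 of 7 a-specific and 10 of 13 pheromone-induced genes, against 721 of 6000 promoters (12.02%).

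Markers of other cell states were checked as well. Of 14 meiosis genes tested, 5 were higher and 1 lower, beside 10.1% and 4.41% of all genes. Genes near the floor could pass the filter mainly through libraries where they were higher, so these counts were not read as a result about the list. The 5 were highest in D273-10B replicate 2 and next in replicate 3, and edgeR called 0 of them without those replicates, where each had an adjusted p of 0.15 or more. HOP1, a protein of the meiotic chromosome axis, stood at 2.17, 1.53, 4.85 and 4.72 normalised CPM in BY4741 and at 1.41, 71.8, 41.8 and 1.28 in D273-10B; its call was lost without D273-10B replicate 2 or BY4741 replicate 1 or 2. DMC1, the meiotic recombinase, was the 1 lower gene (log2 fold change -2.19, SE 0.369, adjusted p = 6.98e-04). The summed level of the meiosis list was 59.6, 518, 498 and 126 normalised CPM in the D273-10B libraries and 58.0 to 108 in those of BY4741; its part in other results of replicates 2 and 3 was not tested.

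Of the 4 labelled marker alleles of BY4741, 3 were visible in the counts. LEU2 had 0 counts in every BY4741 library and 40.8, 34.9, 18.8 and 34.0 normalised CPM in D273-10B, at least 28.0-fold higher. MET17, the gene that the label calls met15, had at most 3 counts in a BY4741 library and 268, 164, 47.8 and 119 normalised CPM in D273-10B. It had 5016 counts over the D273-10B libraries and 6 over those of BY4741, a ratio of 641 (exact 95% interval 294 to 1747, counting error only). MET17 overlaps YLR302C on the other strand, and the strand setting of the counting is not given. URA3 stood at 2.79, 2.29, 0.334 and 2.17 in BY4741 and at 98.3, 193, 228 and 330 in D273-10B (log2 fold change 6.85, SE 0.912, adjusted p = 5.82e-05). HIS3 was counted in both strains, at 527, 546, 384 and 245 in BY4741 and at 132, 561, 982 and 1281 in D273-10B, and did not pass the test (log2 fold change 0.80, adjusted p = 0.267). The his3Delta1 allele removes an internal part of HIS3, so counts over the whole gene do not check it. The maltose genes give no check of the mal label in glucose medium: MAL12, which shares 74.5% of its windows with other places in the reference, stood at 3.68 to 8.02 normalised CPM in BY4741 and at 4.35 to 9.40 in D273-10B.

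Outside mating type and the markers, 1 gene met the rule for detection in a single strain, with at most 3 counts in each library of one strain and at least 10 CPM in each of the other. REE1, named for regulation of enolase, lies 23133 to 23729 on chromosome X and stood at 65.4, 98.5, 101 and 85.5 normalised CPM in BY4741 and at 0, 0.0942, 0 and 0 in D273-10B. It had 2218 counts over the BY4741 libraries and 1 over those of D273-10B, a ratio of 2893. Its exact 95% interval, which covers counting error only, starts at 519. Its neighbour YJL218W (21973 to 22563) followed it, with 8.99 to 13.0 in BY4741 and at most 2 counts in a D273-10B library. The other 12 libraries ran from 0 to 175 normalised CPM for REE1. HXT8 (26887 to 28596), a hexose transporter gene nearby, was lower but counted, at 0.940 to 1.44 in D273-10B and 4.51 to 7.44 in BY4741.

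PHO3, CWP1, HSP12 and RDT1 were among the falls with the largest fold outside the lists above. PHO3 (YBR092C, chromosome II, 427698 to 429101), the constitutive acid phosphatase, stood at 548, 568, 523 and 518 normalised CPM in BY4741 and at 2.35, 3.39, 2.54 and 2.56 in D273-10B (log2 fold change -7.62, SE 0.539, adjusted p = 6.77e-09). CWP1 (YKL096W, chromosome XI, 261132 to 261851), a mannoprotein of the cell wall, stood at 321, 416, 547 and 463 in BY4741 and at 2.82, 2.83, 2.66 and 3.85 in D273-10B (log2 fold change -7.17, SE 0.475, adjusted p = 4.96e-09). In both genes the 4 libraries of each strain lay close together and far from the other strain. HSP12, a small stress protein that binds membranes, stood at 136 to 296 in BY4741 and at 3.17 to 6.97 in D273-10B (log2 fold change -5.59, adjusted p = 2.17e-05). RDT1 stood at 7.44 to 23.2 in BY4741 and at 0.117 to 0.332 in D273-10B, with 397 and 8 counts in all, a ratio of 64.7 on the TMM scale (exact 95% interval 32.5 to 151, counting error only) and an adjusted p of 4.13e-06. ZPS1, a surface protein regulated by zinc and pH, fell by 4.27, and the glutathione exchanger gene GEX2, 44.4% of whose windows occur elsewhere, by 4.00.

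The rises with the largest fold were less even across libraries. YOR387C (chromosome XV, 1069620 to 1070240) was high in every D273-10B library, at 271, 144, 316 and 168 normalised CPM, against 0.930, 0, 1.84 and 2.10 in BY4741 (log2 fold change 7.30, SE 1.03, adjusted p = 1.08e-04). STE5, the scaffold of the pheromone kinase cascade, stood at 42.8, 39.3, 33.1 and 27.3 in BY4741 and at 3437, 45605, 123 and 8614 in D273-10B (log2 fold change 8.67, SE 2.12, adjusted p = 0.0104). All 4 libraries lay above the BY4741 range but differed among themselves by over 100-fold, and the libraries of the other strains ran from 16.6 to 17966.

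Most of the remaining rises were carried by D273-10B replicates 2 and 3. FRE2, a ferric reductase, stood at 4.35, 391.8, 149 and 1.496 normalised CPM in D273-10B and at 0 to 1.27 in BY4741, and GAT4, a GATA-type zinc finger protein, at 0.470, 84.0, 20.9 and 0.855 against 0 to 0.334. HBT1 stood at 8.93, 798, 4.20 and 4.06 and the ubiquitin ligase gene HUL4 at 2.702, 280.0, 3.10 and 3.20, so that both were high in replicate 2 alone; their calls were lost without it. RFX1, a repressor of DNA damage genes, stood at 6.34, 201, 37.4 and 7.69, and its call was lost without D273-10B replicate 2 or BY4741 replicate 4. YLL017W, next to SDC25, stood at 1.29, 51.2, 25.0 and 1.71, and YBL077W and snR56 were likewise highest in replicates 2 and 3. PIG1, a regulatory subunit for the phosphatase Glc7, stood at 4.58, 116, 12.2 and 57.7, and YJL188C stood at 137, 132, 48.7 and 98.7 against 2.01 to 7.44 in BY4741. YBL077W, snR56 and YJL188C have no entry in the annotation used. Replicates 2 and 3 together held over 80% of the strain's summed level for 179 of the 619 higher genes.

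**Figure D2:**
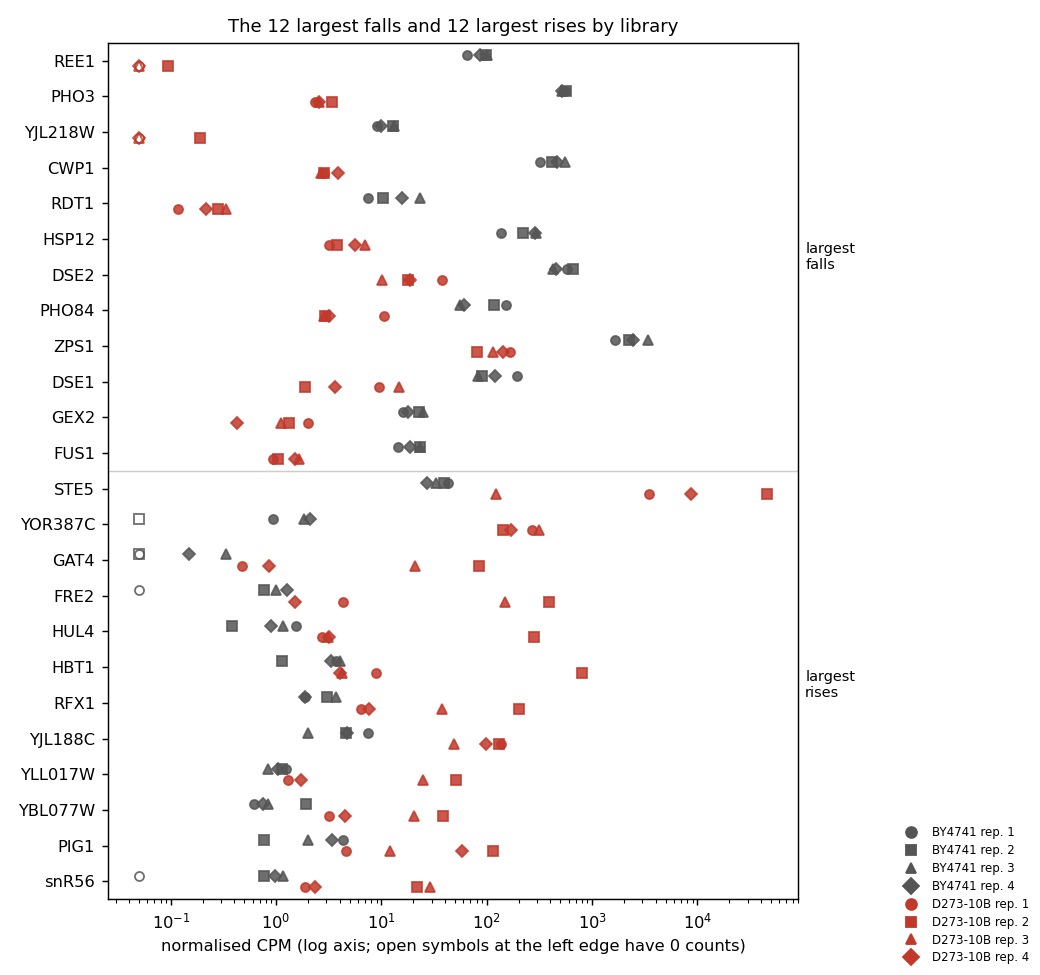
Normalised CPM on a log axis for the 12 largest falls and the 12 largest rises that were called with and without D273-10B replicate 1 and had ranges apart; grey points are BY4741 libraries, red points D273-10B libraries, and open symbols have 0 counts. PHO3, among the falls, is at 2.35 to 3.39 in the D273-10B libraries, and FRE2, among the rises, is at 391.8 and 149 in replicates 2 and 3.

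The raised libraries also stood apart by chromosome. After the median of each library was taken off, genes of chromosome IX had a median log2 difference from BY4741 of 0.82 in D273-10B replicate 2 and 0.54 in replicate 3, or 1.77-fold and 1.45-fold, but of -0.21 in replicate 1 and -0.08 in replicate 4. Genes of chromosome XII had 0.35 and 0.29 in replicates 2 and 3 (1.27-fold and 1.22-fold) and 0.00 and -0.01 in replicates 1 and 4. The other 14 chromosomes ran from -0.43 to 0.13 in replicate 2 and from -0.31 to 0.13 in replicate 3. Chromosome I was lowest in both, at -0.43 and -0.31, shifts at least as large as those of chromosome XII, and was at -0.24 and -0.25 in replicates 1 and 4 and at -0.26 to -0.06 in the other strains. Chromosome XIV stood at -0.21 and -0.31 in replicates 2 and 3. In BY4741 no chromosome left the range -0.05 to 0.06, and the 12 libraries of the other strains ran from -0.11 to 0.20 for chromosome IX and from -0.06 to 0.13 for chromosome XII. With the genes of chromosome IX cut by position into 4 equal sets, all 4 were raised in replicate 2, by 0.46, 1.33, 0.63 and 1.14, and in replicate 3, by 0.31, 0.78, 0.44 and 0.63. On chromosome XII the 4 sets stood at 0.31, 0.29, 0.76 and 0.10 in replicate 2 and at 0.44, 0.21, 0.49 and 0.25 in replicate 3. The set at the right end was not apart from other libraries in replicate 2, since replicate 1 stood at 0.16 there. These summaries were added after the data were seen, and the DNA content of the cultures was not measured.

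**Figure D3:**
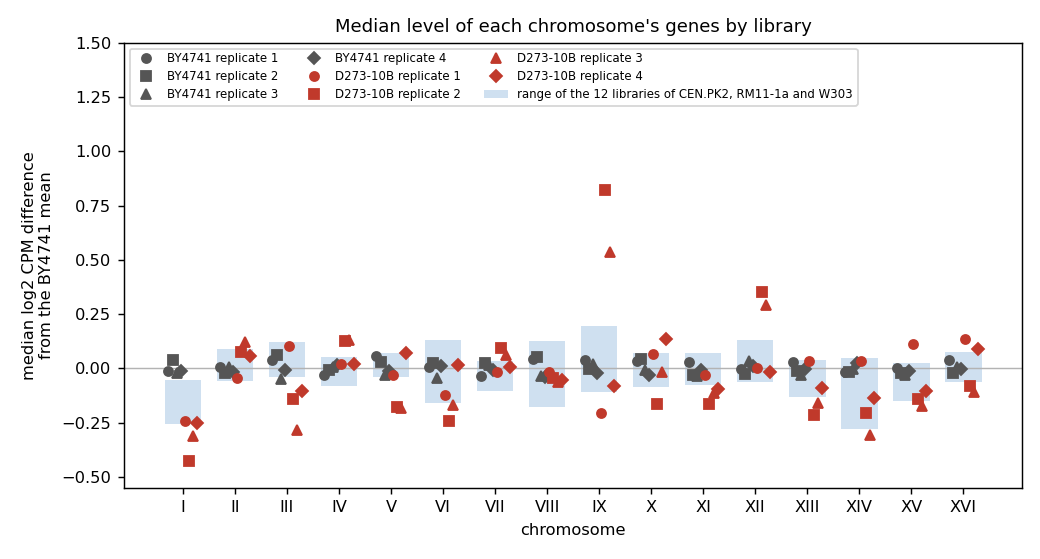
Median over the genes of each chromosome of the log2 CPM difference from the BY4741 mean, less the library's own median, for each BY4741 (grey) and D273-10B (red) library; bars show the range of the 12 libraries of the other strains. Chromosome IX reaches 0.82 and 0.54 and chromosome XII 0.35 and 0.29 in D273-10B replicates 2 and 3 only.

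Calls were also counted by chromosome, from the same libraries and values. On chromosome IX 48 of 207 genes tested were higher and 10 lower (28.0% called), on chromosome XII 92 of 504 were higher and 19 lower (22.0%), and the other 14 nuclear chromosomes had 7.89% to 19.5% called. Together the pair held 140 of the 619 higher genes, or 22.6%, with 11.6% of the genes tested. Both were singled out after the data were seen, for raised levels in libraries that also gave these calls. Their larger share was thus not read as a separate result. A run of 6 neighbouring genes at 27409 to 39471 on chromosome XII was higher throughout: YLL056C, the cysteine transporter gene YCT1, YLL054C, YLL053C, the aquaporin gene AQY2 and the ferric reductase gene FRE6. Within 30 kb of a chromosome end 54 of 338 genes were higher and 26 lower (23.7% called), and farther away 512 of 5438 were higher and 235 lower (13.7%). Of the 338 genes near the ends, 118 have over 10% of their windows elsewhere in the reference, and their counts are uncertain.

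A set of 1115 nuclear genes stayed under 5 normalised CPM in all 12 libraries of the other strains. Their summed level was 1007, 2423, 1777 and 1002 normalised CPM in D273-10B and 666 to 730 in BY4741. Genes of this set at 10 normalised CPM or more numbered 7, 47, 21 and 4 in the D273-10B libraries and at most 1 in a BY4741 library. Replicates 2 and 3 thus held most of the signal from genes that were near silence elsewhere, and the part of that signal in the higher calls was not tested. The set had 360 genes in the test, of which 60 were higher and 14 lower, beside 10.1% and 4.41% of all genes tested. Genes this low in the other 12 libraries could pass the filter mainly through BY4741 or D273-10B libraries where they were higher. The counts were therefore not read as a result about the set.

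Mitochondrial ribosome genes gave more rises than any other list in the fit of all libraries; without D273-10B replicate 1 the cytosolic ribosome gave more. Of 69 genes for the mitochondrial ribosome, which translates the few proteins encoded by mitochondrial DNA, 34 were higher and 0 lower (49.3% called) with a median log2 fold change of 1.03, beside 14.5% and 0.12 over all genes. The share of a library's counts in this list was 0.883%, 0.902%, 1.006% and 1.10% in D273-10B and 0.516%, 0.568%, 0.676% and 0.632% in BY4741, so these strains did not overlap. The 12 libraries of the other strains ran from 0.687% to 1.10%, also above BY4741, so the difference was not particular to D273-10B. Fits without replicate 1 called 47 higher, with a length correction 50, without replicates 2 and 3 called 7, and with the 8 libraries alone 15. None was lower in any of these. Leaving out a library each gave 20 to 47 higher. MRPL15, a protein of the large subunit, stood at 127, 325, 532 and 429 normalised CPM in D273-10B and at 45.6, 61.5, 69.9 and 68.5 in BY4741 (log2 fold change 2.52, SE 0.385, adjusted p = 2.65e-04). MRP2, of the small subunit, stood at 105, 273.2, 552 and 498 against 74.1, 114, 80.7 and 99.4 (log2 fold change 1.96, SE 0.400, adjusted p = 0.00341), with replicate 1 inside the BY4741 range.

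Nuclear genes for the respiratory complexes moved less evenly. They took 0.878% to 1.10% of the counts in D273-10B and 0.654% to 0.738% in BY4741. The 12 libraries of the other strains, at 0.918% to 2.48%, were above BY4741 as well. Of 41, 12 were higher and 1 lower with a median of 0.81. Leaving out a library each gave 3 to 19 higher, with 19 without replicate 1. Without replicates 2 and 3 only CYC1 among them was called. These genes are short as well, with a median exon of 456 bases. With a correction for gene length the median fell to 0.46, with 11 higher and 2 lower. When replicate 1 was left out too, it was 0.39, with 11 higher and 2 lower. CYC1 (YJR048W, chromosome X, 526335 to 526664), the main cytochrome c gene, stood at 125, 140, 168 and 120 normalised CPM in BY4741 and at 309, 895, 1498 and 1745 in D273-10B (log2 fold change 3.01, SE 0.487, adjusted p = 4.78e-04). COX13 and COX7, subunits of cytochrome c oxidase, had log2 fold changes of 1.75 and 1.78; replicate 1 lay inside the BY4741 range for COX13 and below it for COX7, whose call was lost in 6 of the 8 fits that leave out a library each. The single lower gene without that correction was COX5B, the form of subunit V used at low oxygen. It stood at 38.7 to 53.5 in BY4741 and 5.64 to 29.9 in D273-10B (log2 fold change -1.45, SE 0.431, adjusted p = 0.0296). Its aerobic partner COX5A was higher (log2 fold change 1.35, adjusted p = 0.0299). The call of COX5B was lost in 4 of the 8 such fits and that of COX5A in 7.

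Of 13 genes of the Hap1 and heme list, 3 were higher and 0 lower with a median of 0.12, the same as over all genes. Beside CYC1 these were YHB1, the flavohemoglobin that detoxifies nitric oxide, and HMG1, an HMG-CoA reductase of sterol synthesis. YHB1 stood at 2411, 1340, 546 and 1063 normalised CPM in D273-10B and at 183, 185, 156 and 158 in BY4741 (log2 fold change 2.97, SE 0.499, adjusted p = 6.98e-04). HMG1 stood at 44.9, 33.6, 42.3 and 41.7 against 13.6, 8.02, 4.35 and 9.44 (log2 fold change 2.21, SE 0.364, adjusted p = 5.89e-04). Without replicate 1 the list also had 2 lower. All 3 were also called in both reduced fits with the strains apart in each. As background, the HAP1 gene of S288C-derived strains such as BY4741 carries a Ty1 insertion that weakens its product, and the allele in D273-10B is not given in the labels. HAP1 itself stood at 35.6 to 48.7 in BY4741 and at 21.6, 60.3, 17.1 and 21.6 in D273-10B (log2 fold change -0.49, adjusted p = 0.375).

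Mitochondrial import had 8 higher and 0 lower of 30 genes with a median of 0.61, led by the small intermembrane space chaperone TIM9, at 33.1, 65.3, 75.7 and 127 normalised CPM in D273-10B and 16.3 to 20.5 in BY4741 (log2 fold change 2.01, SE 0.449, adjusted p = 0.00627). Leaving out a library each gave 2 to 11 higher import genes, and without replicate 1 the counts were 11 higher and 2 lower. With a correction for gene length the median was 0.40, with 7 higher and 1 lower. Of the genes encoded in mitochondrial DNA only 3 of 8 passed the filter on low counts. ATP6, a subunit of the ATP synthase, had 0, 0, 0 and 0.374 normalised CPM in BY4741 and 2.23, 1.70, 17.5 and 4.06 in D273-10B (log2 fold change 5.08, SE 0.953, adjusted p = 0.00183). COX2 was at 0 to 0.2995 in BY4741 and 0.117 to 0.553 in D273-10B. The levels of this list were close to the floor in both strains, and were not read as the content of mitochondrial DNA.

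Calls of cytosolic ribosomal protein genes depended on which libraries were left out. Of 138 genes, 14 were higher and 0 lower (10.1% called) with a median of 0.88. Without D273-10B replicate 1, 89 were higher, beside 17.9% of all genes in that fit. The list took 23.5% of the counts in replicate 1 and 41.7%, 56.3% and 50.9% in replicates 2, 3 and 4, against 29.9% to 34.9% in BY4741. Replicate 1 was thus below the BY4741 range and the other 3 above it. The libraries of the other strains ran from 27.0% to 59.9%, a range that held replicates 2, 3 and 4. These genes are short, and with a correction for gene length the median fell to 0.35 with 13 higher and 1 lower; without replicates 2 and 3 it was 0.54 with 0 called. Of 10 histone genes, 3 were higher and 0 lower, with a median of 1.13 and shares of counts of 0.552%, 0.799%, 1.22% and 1.02% in D273-10B against 0.505% to 0.549% in BY4741. Without replicate 1, 6 were higher, and with the length correction the median was 0.39 with 4 higher. The histone H3 gene HHT1 stood at 607, 1500, 2163 and 1410 normalised CPM in D273-10B and 416 to 550 in BY4741 (log2 fold change 1.52, SE 0.378, adjusted p = 0.0114). Of 90 ribosome biogenesis genes 3 were higher and 0 lower, with a median of 0.20. Without replicate 1, 9 were higher and 6 lower, under the 17.9% and 12.8% of all genes in that fit.

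**Figure D4:**
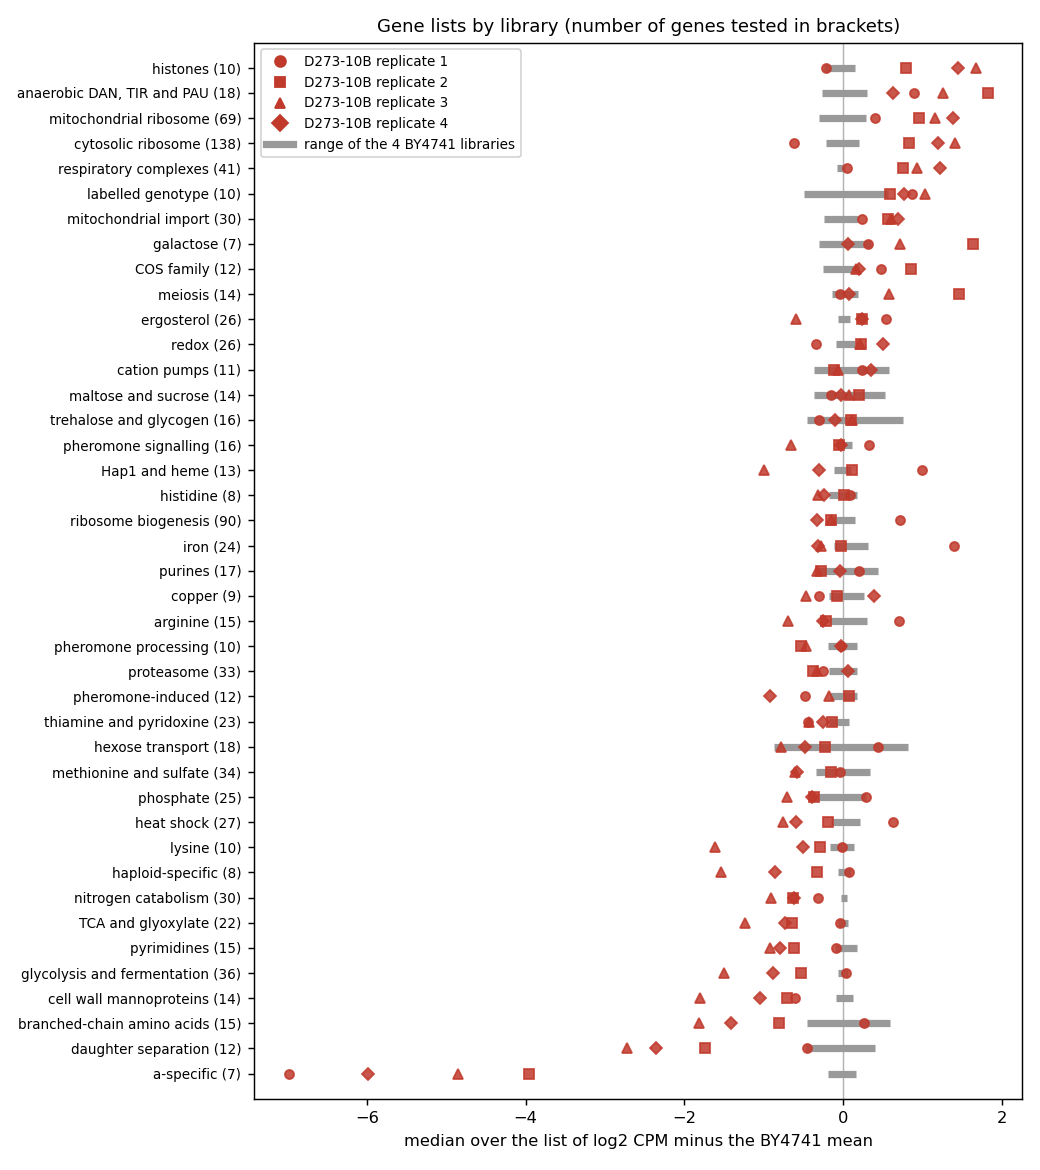
Median over each gene list of the log2 CPM difference from the BY4741 mean; red symbols are the 4 D273-10B libraries, grey bars the range of the 4 BY4741 libraries, and brackets give the number of genes tested. D273-10B replicate 1 lies apart from replicates 2 to 4 in many lists, below them for the cytosolic ribosome and above them for iron, while the a-specific list is low in all 4.

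In the pathways that the labelled markers of BY4741 touch, both directions were seen. Of 15 pyrimidine genes, 3 were lower and URA3 was higher, with a median of -0.36. URA1 (YKL216W, chromosome XI, 25215 to 26159), dihydroorotate dehydrogenase and the gene with the Ppr1 letters shown above, stood at 1450, 1654, 1392 and 1251 normalised CPM in BY4741 and at 158, 146, 72.7 and 141 in D273-10B (log2 fold change -3.47, SE 0.492, adjusted p = 1.14e-04). URA4, dihydroorotase, stood at 204, 267, 327 and 298 against 95.9, 82.9, 43.3 and 62.6 (log2 fold change -1.95, SE 0.349, adjusted p = 0.00126). URA2, the first enzyme of the pathway, had a log2 fold change of -0.96 (adjusted p = 0.0480), and its call was lost in 7 of the 8 fits that leave out a library. URA1 and URA4 were also called in both reduced fits, and without replicate 1 the list had 5 lower and 2 higher.

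Of 15 branched-chain amino acid genes, 3 were lower and LEU2 was higher, with a median of -0.92. BAT1, the mitochondrial branched-chain aminotransferase whose promoter letters are shown above, stood at 219, 276, 182 and 192 normalised CPM in BY4741 and at 123, 70.1, 28.4 and 68.8 in D273-10B (log2 fold change -1.58, SE 0.412, adjusted p = 0.0150). BAT2, its cytosolic partner, and the carrier gene OAC1 had log2 fold changes of -1.503 and -1.89, and both calls were lost without D273-10B replicate 3 among others. The 6 genes with the Leu3 letters did not move together, since ILV2 stood at 22.1 to 62.9 in BY4741 and 28.8 to 69.4 in D273-10B. Replicate 1 was the highest D273-10B library for all 3 lower genes, without it 9 of 15 were lower, and without replicates 2 and 3 none were.

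Methionine and sulfate genes had 2 higher and 2 lower of 34, with a median of -0.23. The higher ones were MET17 and SUL2, a sulfate permease (log2 fold change 1.41, SE 0.304, adjusted p = 0.00514), and the lower ones MET3, the first enzyme of sulfate assimilation (-2.14), and CYS3 (-1.500), whose call was lost in 5 of the 8 fits that leave out a library. Without replicate 1, 7 of the list were lower. The Cbf1 site CACGTG was found before 23 of 35 genes of this list, against 374 of 6000 promoters (6.23%). Of 8 histidine genes 1 was higher, HIS5, at 52.9, 68.97, 20.2 and 35.5 normalised CPM in D273-10B and 2.17 to 6.49 in BY4741 (log2 fold change 3.58, SE 0.781, adjusted p = 0.00528). Arginine (15 genes) and lysine (10 genes) had 0 calls by edgeR with all libraries and 0 by DESeq2, and 2 and 1 of their genes had an unadjusted p under 0.05; without replicate 1 edgeR called 1 and 2 lower.

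Nitrogen catabolism had 6 lower and 1 higher of 30 genes, with a median of -0.54. GAP1, the general amino acid permease, stood at 30.7, 11.8, 10.9 and 15.2 normalised CPM in BY4741 and at 2.94, 2.45, 3.32 and 0.855 in D273-10B (log2 fold change -2.79, SE 0.471, adjusted p = 7.14e-04). GAT1, a GATA activator of these genes, fell by 2.53 (SE 0.418, adjusted p = 6.06e-04). The higher gene was DUR1,2, named DUR12 in the table, which encodes urea amidolyase, at 12.5 to 21.0 in D273-10B against 3.34 to 6.82 (log2 fold change 1.65, SE 0.295, adjusted p = 0.00122). All 3 genes were called in both reduced fits, and without replicate 1 the list had 10 lower and 2 higher.

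Most calls in central carbon metabolism were lower. Of 22 genes of the TCA and glyoxylate cycles, 4 were lower and 0 higher with a median of -0.36. MDH2 (YOL126C), the cytosolic malate dehydrogenase, stood at 770, 750, 619 and 507 normalised CPM in BY4741 and at 62.6, 68.9, 24.6 and 69.2 in D273-10B (log2 fold change -3.55, SE 0.490, adjusted p = 8.95e-05). PCK1, the gluconeogenic carboxykinase, and IDH2, a subunit of isocitrate dehydrogenase, fell by 2.21 and 2.06. Of 36 glycolysis and fermentation genes, 6 were lower and 2 higher with a median of -0.25. Without replicate 1 the counts were 10 lower and 2 higher in the TCA list (median -0.996) and 12 lower and 2 higher in the glycolysis list (-0.89). Glycolysis and fermentation genes took 14.2% of the counts in replicate 1, above the 9.45% to 11.3% of BY4741, and 7.96%, 4.08% and 6.36% in replicates 2, 3 and 4, below it.

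The alcohol dehydrogenases split. ADH1, the main fermentative enzyme, stood at 4137, 6459, 3018 and 3436 normalised CPM in BY4741 and at 1808, 904, 287 and 753 in D273-10B (log2 fold change -2.18, SE 0.423, adjusted p = 0.00236). ADH2 followed it at -2.17, but 11.8% of the windows of each gene occur elsewhere in the reference, so reads may be shared between them. ADH3, the mitochondrial form, fell by 1.92 and ALD4, the mitochondrial aldehyde dehydrogenase, by 2.50. ADH4, a form of another enzyme family, stood at 6217, 5853, 3809 and 6144 in D273-10B and at 400, 416, 1311 and 919 in BY4741 (log2 fold change 2.85, SE 0.717, adjusted p = 0.0120). The 2 galactose genes called of 7, GAL1 and GAL3, were high in replicate 2 and, for GAL3, replicate 3, and none was called without those replicates; GAL3 stood at 6.23, 67.7, 62.8 and 4.91 in D273-10B and 2.01 to 5.62 in BY4741.

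Of 25 phosphate genes, 8 were lower and 3 higher (44.0% called), with a median of -0.22. The lower ones were the acid phosphatases PHO3, PHO5, PHO11 and PHO12, the transporters PHO84 and PHO89, the small regulator SPL2 and the activator PHO4. PHO5 stood at 60.7, 63.4, 44.8 and 45.5 normalised CPM in BY4741 and at 6.81, 5.75, 4.09 and 4.91 in D273-10B (log2 fold change -3.30, SE 0.304, adjusted p = 4.43e-07). PHO84, the high-affinity phosphate transporter, stood at 151, 117, 55.2 and 61.0 against 10.5, 2.92, 2.88 and 3.20 (log2 fold change -4.29, SE 0.765, adjusted p = 0.00122). PHO11 and PHO12 share over 80% of their windows with other places in the reference, so their counts cannot be told apart. Those of PHO3 and PHO5, which are neighbours, do so for 3.16% and 4.96%.

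The 3 higher phosphate genes were GIT1, a permease for glycerophosphoinositol, PHO81, an inhibitor of the phosphate-sensing kinase, and VTC5, of the polyphosphate polymerase. GIT1 stood at 23.5, 10.5, 8.63 and 8.55 normalised CPM in D273-10B and 1.34 to 3.10 in BY4741 (log2 fold change 2.87, SE 0.440, adjusted p = 2.70e-04). The letters CACGTG, which Pho4 also binds, stood before 15 of the 25 genes. The calls of PHO89 and VTC5 were each lost in 4 of the 8 fits that leave out a library, and without replicates 2 and 3, 5 of the list were lower and 1 higher.

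Of 24 iron genes, 7 were higher and 1 lower, with a median of 0.59. ARN1, a siderophore transporter, stood at 208, 18.8, 21.8 and 8.97 normalised CPM in D273-10B and at 13.9, 5.73, 4.68 and 4.64 in BY4741, and FRE1, a ferric and cupric reductase, at 122, 31.8, 12.9 and 10.7 against 7.02 to 9.61. Replicate 1 was the highest library for both, and FRE2 was high in replicates 2 and 3 instead. The log2 fold changes were 3.18 for ARN1 (adjusted p = 0.0129; 0.0798 without replicate 1) and 2.41 for FRE1 (adjusted p = 0.00752; 0.0188 without it). HMX1, a heme oxygenase, was even, at 42.6, 56.7, 46.2 and 45.3 against 11.5 to 17.6 (log2 fold change 1.72, SE 0.359, adjusted p = 0.00381). Without replicate 1 the list had 6 higher and 6 lower. The copper transporter genes moved apart: CTR1 rose (log2 fold change 0.92, adjusted p = 0.0138) and CTR3 fell by 2.58 (adjusted p = 0.0110).

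Genes of daughter cell separation, transcribed after division in the daughter, had 5 lower and 2 higher of 12, with a median of -1.66. DSE2, a secreted protein with similarity to glucanases, stood at 573, 660, 424 and 457 normalised CPM in BY4741 and at 37.8, 17.8, 10.2 and 18.8 in D273-10B (log2 fold change -4.64, SE 0.995, adjusted p = 0.00472). DSE1 fell by 4.02, the chitinase gene CTS1 by 2.83 (lost without BY4741 replicate 1 or D273-10B replicate 3) and DSE3 by 2.36. AMN1, an antagonist of mitotic exit, stood at 127, 82.5, 50.7 and 93.7 against 58.3, 17.4, 6.86 and 8.76 (log2 fold change -1.95, SE 0.532, adjusted p = 0.0192), and its call was lost without D273-10B replicate 2 or 3 or BY4741 replicate 1. As background, S288C-derived strains carry an AMN1 allele with lost function, and the allele of D273-10B is not given in the labels. Without replicate 1 the list had 8 lower and 2 higher. DSE4, a secreted glucanase, went the other way, at 73.9, 39.2, 48.0 and 43.6 in D273-10B and 12.4 to 19.5 in BY4741 (log2 fold change 1.64, SE 0.304, adjusted p = 0.00164).

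Cell wall mannoproteins had 5 lower and 0 higher of 14, with a median of -0.54. Beside CWP1, YGP1 stood at 425, 476, 413 and 365 normalised CPM in BY4741 and at 66.5, 76.9, 24.7 and 72.4 in D273-10B (log2 fold change -2.80, SE 0.442, adjusted p = 3.65e-04). SED1, an abundant structural protein of the wall, stood at 3820 to 5259 against 528 to 2209 (log2 fold change -1.78, SE 0.403, adjusted p = 0.00664). FLO11, a flocculin of which 21.8% of windows occur elsewhere, rose from 0.334 to 2.29 in BY4741 to 2.99 to 13.4 in D273-10B (log2 fold change 2.693, SE 0.594, adjusted p = 0.00574).

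The DAN, TIR and PAU families, mannoproteins known from anaerobic growth, had 8 higher and 1 lower of 18 tested, beside 10.1% and 4.41% of all genes. The other 12 of the 30 listed did not pass the filter on low counts. Genes this low could pass it mainly through libraries where they were higher, so the counts were not read as a result about the families. The list took 0.00732% to 0.0166% of the counts in D273-10B and 0.00351% to 0.00671% in BY4741. The libraries of the other strains ran from 0.00513% to 0.0183%. DAN4 stood at 13.5, 8.76, 12.8 and 25.0 normalised CPM in D273-10B and at 2.17, 0.764, 0.669 and 0.749 in BY4741 (log2 fold change 3.88, SE 0.592, adjusted p = 2.65e-04), with 16.8% of its windows elsewhere. TIR2 stood at 47.9, 37.7, 21.9 and 33.8 against 1.15 to 9.92 (log2 fold change 2.57, SE 0.414, adjusted p = 4.57e-04). TIR1 was the 1 lower gene, at 0.117 to 1.11 against 3.10 to 5.68. The PAU genes are near-identical copies, all windows of PAU1 and PAU14 occur elsewhere, and their counts cannot be assigned to a copy.

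The remaining lists had from 0% to 28.6% of their genes called, beside 14.5% of all genes. Heat shock had 5 higher and 1 lower of 27 (22.2%), and 4 higher and 6 lower without D273-10B replicate 1. The lower gene was HSP12, and the higher ones held HSP31, at 107, 199, 167 and 188 normalised CPM in D273-10B and 33.2 to 48.8 in BY4741 (log2 fold change 2.04, SE 0.397, adjusted p = 0.00242). Ergosterol synthesis had 3 higher and 3 lower of 26 (23.1%), and 4 higher and 6 lower without replicate 1; ERG28 rose (log2 fold change 1.87, adjusted p = 0.00223) and ERG24 fell by 1.47 (adjusted p = 0.00700). The call of UPC2, a sterol regulator, rested on BY4741 replicate 4, at 3615 against 3.68 to 9.61 in the other 3, and without that library its log2 fold change turned from -5.53 to 1.63; it was also lost without D273-10B replicate 3. Maltose and sucrose had 1 higher and 3 lower of 14 (28.6%), trehalose and glycogen 0 higher and 2 lower of 16, hexose transport 0 higher and 1 lower of 18, and thiamine and pyridoxine 0 higher and 2 lower of 23. Purines had 1 higher of 17, redox 1 higher and 1 lower of 26, biotin 1 higher of 5, pheromone processing 1 higher and 1 lower of 10, the HAP complex 1 higher of 4 and the COS family 2 higher of 12. The COS family had 7 higher and 0 lower with a correction for gene length, beside 10.8% and 5.29% of all genes in that fit. It had 8 higher and 0 lower when replicate 1 was left out too, beside 15.1% and 10.2%. Without replicate 1 hexose transport had 4 lower, redox 2 higher and 3 lower, and pheromone processing 1 higher and 3 lower. The proteasome (33 genes) and the cation pumps (11 genes) had 0 calls by edgeR with all libraries. Of their genes, 5 and 2 had an unadjusted p under 0.05, and DESeq2 called 1 in each. Without replicate 1 edgeR called 5 and 2, both under the 30.7% of all genes in that fit.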

How the data were processed

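Raw read counts of 20 libraries, 1 column each, were deposited by the authors; STAR and Salmon are named in the submitters' processing notes, and their roles, the genome build and the strand setting are not given in the sources used here. The counts were used as deposited, with 0 columns left unused. In R 4.3.3, edgeR 4.0.16 with TMM scaling and its standard expression filter kept 6119 of 7127 genes, and a quasi-likelihood model of all 5 strains gave the contrast of D273-10B with BY4741, with Benjamini-Hochberg adjustment over all 6119. Normalised CPM are counts divided by the library total times its TMM factor, scaled as CPM are, so the columns have different sums. Standard errors were derived from the log2 fold change and the F statistic.

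The members and gene lists were chosen with earlier results of these data known. Named genes were all genes of the mating and marker lists, the 12 largest rises and 12 largest falls outside them (called with and without D273-10B replicate 1, not overlapping, 10 CPM or more in the higher strain), up to 3 called genes per list and direction with the genes that define its role, and genes detected in 1 strain; ADH3, COX2, COX5A, DSE3, FRE6, HMX1, ILV2, PAU1, PHO11, PHO12, PHO4, PHO89, SPL2 and TIR2, outside this rule, were chosen after their values were seen. Annotation, window repeats (75 bases) and promoters came from RefSeq R64, which matched 6088 genes, 6047 of them by systematic name; FLO8 and CRS5 were not matched. The deviations of same-numbered libraries had correlations of 0.28, -0.12, 0.19 and -0.30, so replicate numbers were not taken to pair the libraries. With known 8-fold changes put into counts drawn for 6080 genes, 97.5% were called, and 80.0% at 4-fold higher, 67.5% at 4-fold lower, 10.0% at 2-fold higher and 27.5% at 2-fold lower. The drawn counts gave a gene the same spread in every library and held no length trend or chromosome shift. These shares therefore do not describe the real libraries. Alternatives used limma 3.58.1 functions and DESeq2 1.42.0.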

Additional observations from a re-analysis of the deposited data

Results flagged for a closer look

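Each value here is a library that lay far from the other 3 of its strain. The gap to the nearest of them took up most of the whole range (Dixon's test at 95%). Of 321 groups examined 35 did so. A rate by chance of about 1 in 20 holds for values with a normal spread. These were unlogged levels of genes chosen partly by their calls, some of them near the floor. The count was therefore not set against that rate. Values are normalised CPM, and the causes were not tested. D273-10B replicate 2 stood high for HUL4 (280.0), HBT1 (798), RFX1 (201), the pheromone-induced gene PRM2 (109.5), REC8 (47.4), GAL1 (58.5), RPL39 (10.1), RRP12 (50.0), PAU3 (9.52) and HAP1 (60.3). D273-10B replicate 1 stood high for SAG1 (103), PHO84 (10.5), GAT1 (5.64), BTN2 (61.9), ARN1 (208), GIT1 (23.5) and the endonuclease gene HO (65.1). D273-10B replicate 3 stood low for MDH2 (24.6), ADH4 (3809), CCP1 (28.2) and the mating kinase gene FUS3 (37.2). The same library stood high for DUR12 (21.0), ATP6 (17.5), NOC2 (302) and OLI1 (14.2), and replicate 4 for CWP1 (3.85). In BY4741, replicate 4 stood apart for UPC2 (3615) and ATP6 (0.374), replicate 2 for YBL077W (1.91) and PAU14 (0), and replicate 1 for DAN4 (2.17), ARN1 (13.9), FET4 (25.1), CTR1 (13.6) and GIT1 (3.10). Replicate 2 of D273-10B thus held 10 of the 35.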

How the results depend on the processing

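Against 889 calls (619 higher, 270 lower), the 8 libraries fitted alone gave 314 (180, 134), 228 (106, 122) with the library numbers as a block, and, as added after the data were seen, 247 (126, 121) with a replicate block and 2116 (1132, 984) without D273-10B replicate 1. A test for a change over 2-fold gave 159 (106, 53), a length correction without D273-10B replicate 1 gave 1565 (934, 631), and leaving out D273-10B replicates 2 and 3 gave 174 (111, 63). The length correction with a block for library numbers called 420 lower, the libraries numbered from 69 alone 446 lower, and those with the length correction 269 higher. The share with the same sign in the other libraries went from 45.4% to 71.7% with the length correction. Leaving out a library each gave 479 to 1904 calls, 309 to 1111 higher and 141 to 793 lower; the counts were 560, 540 and 521 without BY4741 replicates 2, 3 and 4, and 1904, 479 and 507 without D273-10B replicates 1, 2 and 3. A replicate block gave 720 calls, 768 with the length correction, and of 145 named genes called, 128 kept their call and direction under it.

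The share of calls that were higher was 69.6%, and 58.4% without D273-10B replicate 1, 57.3% with the 8 libraries alone, 46.5% with those and the library numbers as a block, 51.0% with those and the replicate block, 53.8% for the libraries numbered from 69 (44.5% with the length correction), 59.1% with the length correction and the library block, and 59.7% with the length correction without D273-10B replicate 1. DESeq2 size factors gave 911 calls, DESeq2 1187 and no filter 925.

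Direction turned as follows, and the causes were not tested. Leaving out a library each gave ranges of -6.21 to 1.63 for UPC2 (main value -5.53; 1.63 without BY4741 replicate 4) and of -0.11 to 3.08 for PRM2 (2.696; -0.11 without D273-10B replicate 2). The others were not called with all libraries: such ranges were -0.22 to 0.33 for MAL33 (-0.03), -0.018 to 1.08 for MAL11 (0.40), -0.54 to 0.13 for PMA1 (-0.27), -0.36 to 0.077 for FUS3 (-0.20) and -0.23 to 0.54 for STE12 (0.11). MAL33 gave 0.00835 with the 8 libraries alone, 0.0126 with the replicate block and 0.40 with the length correction, which gave 0.17 for FUS3 and 0.20 for TDH3 (-0.20).

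The BY4741 floor of 3 counts was 0.225 to 1.15 normalised CPM, and smaller levels could not be told from 0.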
